A study of Mus musculus with 4 samples.

Results

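Protein-coding genes of mouse embryonic stem (ES) cells were compared between cells kept for 2 days without leukaemia inhibitory factor (LIF) and cells kept with it. The comparison used 1 library of cells without LIF and 2 ES libraries. Its members were the 12170 protein-coding genes with 1 FPKM or more (fragments per kilobase of gene model and per unit of library depth) in at least 1 of these 3 libraries, of 21618 protein-coding genes and 47633 genes in all. The other 9448 protein-coding genes were under 1 FPKM in each of the 3. The gene just inside this threshold was Tmem260, whose highest value was 1.00 FPKM, and the one just outside was Zfp791, whose highest value also rounds to 1.00 FPKM.

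All libraries were made from total RNA of 129S2/SvPas mouse cells. The ES cells were cultured with LIF and 15% fetal bovine serum on mitomycin C-treated embryonic fibroblasts of C57/BL6 mice, and the same culture text stands in the labels of every sample, so whether feeder cells were present during the 2 days without LIF is not stated. A further library, of embryoid bodies after 5 days without LIF, entered the statistical model and is otherwise described in the closing section. The labels give "21-24" as cell type without saying what it means. Nothing in the labels says that ES 1 and ES 2 were separate cultures. The p-values therefore measure the spread between this pair alone, possibly technical, and the library without LIF had no replicate.

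LIF is a cytokine that binds the LIF receptor together with gp130, encoded by Il6st. Janus kinases then phosphorylate the transcription factor STAT3, which activates genes that hold mouse ES cells in a self-renewing state. Among these targets is Socs3, whose protein binds the receptor complex and shuts the pathway down. LIF also activates the ERK kinases, which induce Fos and other immediate early genes.

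Levels are in FPKM, which divides by gene length and library total, and log2 changes are differences of log2(FPKM + 1), a scale that understates the change of low genes. A gene "rose" or "fell" here where limma, fitted over all 15676 genes with 1 FPKM or more in any library, gave a Benjamini-Hochberg adjusted p under 0.05 and a change of at least 1 on the log2 scale. That fit has 1 residual degree of freedom, from the ES pair. A second rule without a test asked whether the library without LIF lay at least 2-fold above or below both ES libraries on FPKM + 1. The sources used here do not say whether the libraries record strand, so reads from a gene and from one overlapping it on the opposite strand cannot be told apart. By GENCODE release 21, 6705 members had no gene on the opposite strand (strand-clear), 1588 overlapped such a body without sharing exon sequence and 3877 shared exon sequence with one.

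The promoters of the genes on which the description turns are shown first, because the STAT and AP-1 (Fos and Jun) factors act through short DNA motifs. Each line is the 250 bases before the transcription start in RefSeq (GRCm38.p6, the mm10 assembly), 5′ to 3′ along the gene, with matches to a STAT motif (TTC, any 3 bases, GAA) or an AP-1 motif (TGANTCA) in capitals. Both motifs read the same on either strand. The first set holds the 4 genes named as markers of LIF withdrawal: Socs3 (chr11:117969367-117969616, minus strand), Fos (chr12:85473640-85473889, plus strand), Id2 (chr12:25096093-25096342, minus strand) and Klf2 (chr8:72318812-72319061, plus strand). The second set holds 3 genes that were far higher without LIF: Mmp3 (chr9:7445572-7445821, plus strand), Mmp10 (chr9:7502092-7502341, plus strand) and Prl2c3 (chr13:12800080-12800329, minus strand).
Socs3: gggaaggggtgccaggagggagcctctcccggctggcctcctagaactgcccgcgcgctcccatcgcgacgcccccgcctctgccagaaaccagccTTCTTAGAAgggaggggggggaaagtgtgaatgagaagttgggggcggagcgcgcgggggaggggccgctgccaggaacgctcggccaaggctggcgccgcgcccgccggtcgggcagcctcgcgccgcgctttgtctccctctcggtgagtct
Fos: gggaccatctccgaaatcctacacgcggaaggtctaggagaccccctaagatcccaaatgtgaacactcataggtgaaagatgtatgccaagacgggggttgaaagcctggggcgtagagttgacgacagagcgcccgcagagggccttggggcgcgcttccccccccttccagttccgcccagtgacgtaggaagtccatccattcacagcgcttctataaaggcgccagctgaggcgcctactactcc
Id2: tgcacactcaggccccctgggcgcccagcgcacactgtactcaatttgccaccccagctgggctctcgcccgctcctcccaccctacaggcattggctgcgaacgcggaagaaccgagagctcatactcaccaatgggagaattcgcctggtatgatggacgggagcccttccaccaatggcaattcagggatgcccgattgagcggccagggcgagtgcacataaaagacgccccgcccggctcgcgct
Klf2: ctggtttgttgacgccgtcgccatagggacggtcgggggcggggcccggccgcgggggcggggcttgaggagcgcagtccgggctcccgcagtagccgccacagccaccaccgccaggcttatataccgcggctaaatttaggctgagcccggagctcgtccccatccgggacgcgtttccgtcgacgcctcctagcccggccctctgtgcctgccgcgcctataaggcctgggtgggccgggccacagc
Mmp3: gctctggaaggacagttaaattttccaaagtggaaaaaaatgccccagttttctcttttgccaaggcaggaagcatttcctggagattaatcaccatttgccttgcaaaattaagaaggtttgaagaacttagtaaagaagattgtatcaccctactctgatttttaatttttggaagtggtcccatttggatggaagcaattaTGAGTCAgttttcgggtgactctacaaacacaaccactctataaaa
Mmp10: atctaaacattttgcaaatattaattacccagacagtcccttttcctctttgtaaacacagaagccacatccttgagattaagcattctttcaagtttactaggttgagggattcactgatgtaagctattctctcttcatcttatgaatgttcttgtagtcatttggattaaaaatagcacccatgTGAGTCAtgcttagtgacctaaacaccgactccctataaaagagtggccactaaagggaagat
Prl2c3: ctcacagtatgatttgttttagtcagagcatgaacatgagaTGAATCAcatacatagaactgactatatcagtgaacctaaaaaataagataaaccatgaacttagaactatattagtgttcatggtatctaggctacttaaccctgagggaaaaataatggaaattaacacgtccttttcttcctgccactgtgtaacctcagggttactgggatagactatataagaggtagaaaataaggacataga

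The Socs3 promoter held 1 STAT match, TTCTTAGAA, whose first base lay at -154 from the start. The Mmp3 and Mmp10 promoters each held the AP-1 match TGAGTCA, at -46 and -63, and Prl2c3 had TGAATCA at -209. Prl2c3 also had a STAT match, TTCCCGGAA, from base 26 after the start, beyond the printed bases. In Socs3 and Id2, and for the last part of Klf2, the printed bases lie inside the gene as GENCODE draws it, since GENCODE starts these genes further upstream. No match to either motif was found in the printed windows of Fos, Id2 and Klf2, which says only that these letters are not in this stretch. Over windows of 300 bases (250 before and 50 after the start), a STAT match stood in 8.3% and an AP-1 match in 7.81% of all 32851 promoters. Of the promoters of members, 6.58% and 4.81% had them. Among the strand-clear genes that rose, 13 of 84 promoters (15.5%) had an AP-1 match, and 6 of 84 (7.14%) a STAT match. These 84 promoters belong to 73 of the 111 genes. Only 44 of the 111 were at 1 FPKM or more in an ES library, and no share was taken for those alone. The difference from other genes was not tested. Among the strand-clear genes that fell, 1 of 21 promoters (4.76%) had an AP-1 match and 2 (9.52%) a STAT match. The strand-clear genes called by neither rule had them in 4.62% and 6.62% of 6362 promoters. A match is a description of the sequence and not a measured binding site.

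Estimated depth was 31.9 and 26.8 M fragments in ES 1 and ES 2 and 18.3 M in the library without LIF. A gene of 1 kb with 3 fragments would stand at 0.0942, 0.112 and 0.164 FPKM in these, which covers counting error only. The FPKM of protein-coding genes summed to 453990, 471165 and 458196. The total over all genes differed more (582093, 528718 and 865343), since 1 short non-coding gene, Gm26465, held 37.7% of the sum without LIF. The median log2 change over the 12170 members was 0.03. The ES libraries were at least 2-fold apart for 54 members (0.444%), 41 of them higher in ES 1.

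ES cell markers were present in all 3 libraries at similar levels. Pou5f1, which encodes the pluripotency factor OCT4, was at 489 and 472 FPKM in ES cells and 455 without LIF. Sox2, its partner on DNA, was at 134, 126 and 146 FPKM. Nanog, another core factor, was at 113, 108 and 103 FPKM. These 3 genes and 2 further ES markers, Zfp42 and Esrrb, summed to 1077.5 and 1060.6 FPKM in ES cells and 1013.5 without LIF, and none of the 5 was 2-fold from both ES libraries. Pou5f1 shares exon sequence with a gene on the opposite strand, where Gm19553 was the most abundant overlapping gene in ES cells. By these 5 markers the ES cell label held in all 3 libraries.

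Without LIF, the feedback inhibitor gene Socs3 and the early response genes Fos and Fosb fell, as did Id2 and Ifitm1, while 31 of 32 naive and core pluripotency genes stayed within 2-fold. Far more genes rose than fell: by limma 342 of 12170 members rose (2.81%) and 33 fell (0.271%), and at an unadjusted p under 0.05 stood 4318. By the 2-fold rule 466 were higher (3.83%) and 61 lower (0.501%). A member under 1 FPKM in both ES libraries entered only through the library without LIF and had to be higher there. Leaving out those 668 members, 106 of 11502 rose (0.922%), 33 fell (0.287%), and the 2-fold rule gave 189 higher (1.64%) and 61 lower (0.53%).

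**Figure D1:**
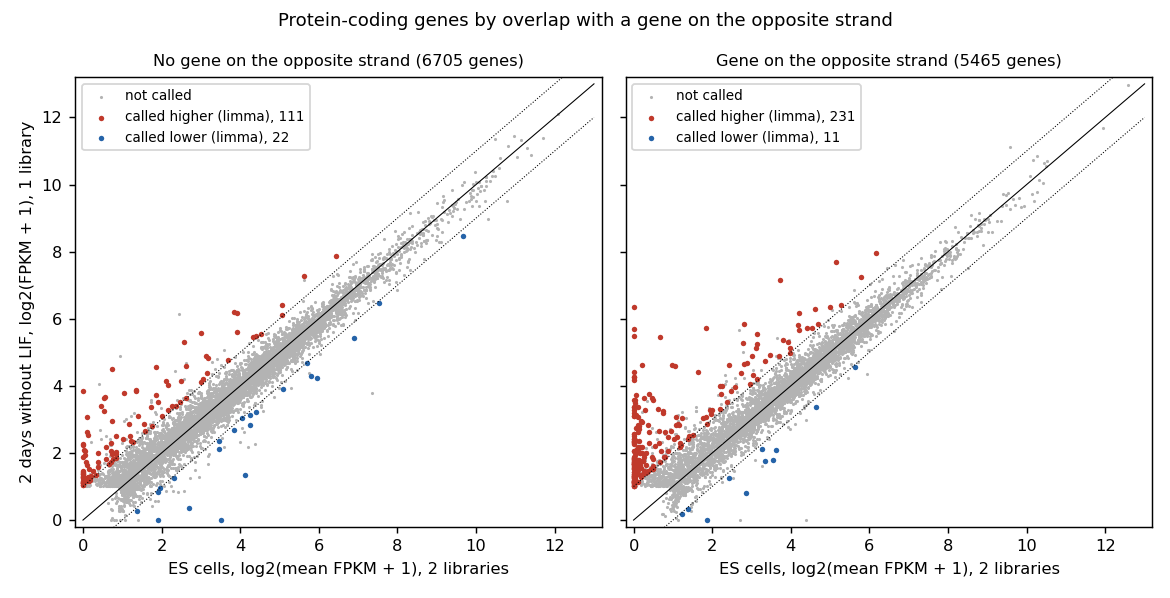
Level of each protein-coding gene in the library without LIF (vertical axis) against the mean of the 2 ES libraries (horizontal axis), both as log2(FPKM + 1), for 6705 genes with no gene on the opposite strand (left) and 5465 with one (right). The solid line marks equal levels and the dotted lines a 2-fold difference; red and blue points are the genes that rose (111 and 231) and fell (22 and 11) by limma.

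Socs3 (minus strand of chr11:117966079-117970047, mm10, strand-clear) was at 61.3 FPKM in ES 1, 59.7 in ES 2 and 17.8 without LIF. Both ES libraries stood more than 3-fold above the library without LIF, with a log2 change of -1.71 and a limma adjusted p of 0.0134 (SE 0.03). Fos (plus strand of chr12:85473890-85477273), a subunit of AP-1, was at 17.1 and 15.8 FPKM in ES cells and at 1.52 without LIF, with the ES libraries close together. It changed by -2.79 on the log2 scale (SE 0.08), with a limma adjusted p of 0.0249. Id2 (minus strand of chr12:25093799-25097140) encodes a protein that keeps basic helix-loop-helix factors off DNA. It was at 54.1 and 54.5 FPKM in ES cells and 18.7 without LIF, with a limma adjusted p of 0.00953 and a log2 change of -1.49 (SE 0.02). The ES libraries nearly coincided for Id2 and neither came near the library without LIF.

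Klf2 (plus strand of chr8:72319033-72321656), a Krüppel-like factor of naive pluripotency, had 39.7 and 36.2 FPKM in ES cells and 14.2 without LIF. It was at least 2-fold below both ES libraries, with a log2 change of -1.35 (SE 0.09), and did not pass the test over all genes (limma adjusted p = 0.0566). Klf2 passed it when protein-coding genes were fitted alone, and when the fit held only strand-clear genes with at least 1000 nt of exons, and the lowest limma adjusted p over the alternatives was 0.0155.

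Among the other strand-clear genes lowest relative to ES cells, Fosb, a second FOS family member, was at 5.71 and 5.29 FPKM in ES cells and 0.294 without LIF (log2 change -2.33, limma adjusted p = 0.0276). Ifitm1, an interferon-induced membrane protein gene that ES cells express, was at 121 and 116 FPKM in ES cells and 42.2 without LIF (-1.47, 0.0262). Both libraries of ES cells were above the library without LIF for each gene. Fmc1, whose protein helps assemble mitochondrial ATP synthase, was at 10.3, 9.86 and 3.31 FPKM (-1.36, 0.0396). With a pseudocount of 5, Fosb and Fmc1 no longer passed, and Fmc1 did not pass with protein-coding sums set equal. Of the 10 genes chosen by size here, 6 fell by limma and all 10 were at least 2-fold lower.

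Besides Klf2, 3 of these 10 were 2-fold lower without passing the test. Hmgn5, a nucleosome-binding protein gene, was at 8.47, 7.81 and 2.17 FPKM (limma adjusted p = 0.0514). Phpt1, a histidine phosphatase, was at 14.6, 17.8 and 5.11 FPKM (0.0909). Nop10, a component of the ribonucleoproteins that pseudouridylate RNA, was at 55.0, 50.2 and 19.9 FPKM (0.0556). The ES libraries lay closer to each other than to the library without LIF for all 3.

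**Figure D2:**
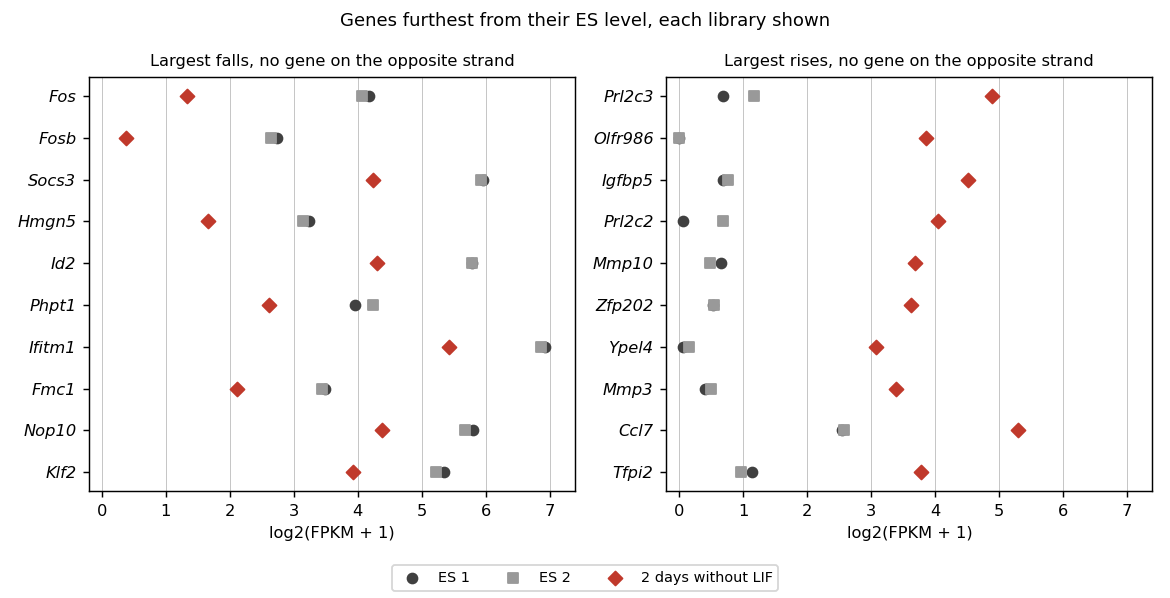
Level of 20 strand-clear genes in each library as log2(FPKM + 1), with ES 1 as dark circles, ES 2 as grey squares and the library without LIF as red diamonds. The left panel holds the 10 genes furthest below ES cells and the right panel the 10 furthest above; the red diamond lies to the left of both ES points in every row of the left panel and to the right in every row of the right panel.

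The 10 strand-clear genes furthest above ES cells included genes for secreted proteins, proteases and zinc finger proteins. Igfbp5 (minus strand of chr1:72857932-72874884), a binding protein for insulin-like growth factors, was at 0.615 and 0.697 FPKM in ES cells and 21.9 without LIF (log2 change 3.79, SE 0.07, limma adjusted p = 0.0135). Ccl7 (plus strand of chr11:82045712-82047525), a monocyte-attracting chemokine, was at 4.85, 4.95 and 38.4 FPKM (2.74, SE 0.04, limma adjusted p = 0.00839). Tfpi2, an inhibitor of serine proteases, was at 1.20, 0.955 and 12.7 FPKM (2.73, SE 0.12, limma adjusted p = 0.0402). The ES libraries were close to each other for each of these 3 genes and far below the library without LIF.

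Mmp10 and Mmp3, which encode stromelysins that cut extracellular matrix, rose as well. Mmp10 (plus strand of chr9:7502352-7510240) was at 0.572 and 0.394 FPKM in ES cells and 11.8 without LIF (log2 change 3.11, limma adjusted p = 0.036). Mmp3 (plus strand of chr9:7445822-7455975) was at 0.319, 0.419 and 9.50 FPKM (2.94, limma adjusted p = 0.0249). Their transcripts are 74.6% identical. Ypel4, of a conserved zinc-binding family, was at 0.0431 and 0.119 FPKM in ES cells and 7.45 without LIF (2.97, limma adjusted p = 0.0178). With a pseudocount of 0.1 in place of 1, Mmp10, Mmp3, Ypel4 and Tfpi2 no longer passed.

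Olfr986, which encodes an olfactory receptor, was at 13.5 FPKM without LIF and listed at 0 in ES 1 and in ES 2. Zfp202, a zinc finger gene that begins 2181 bases after the end of Olfr986 on the same strand of chr9, was at 0.449 and 0.465 FPKM in ES cells and 11.4 without LIF. Both rose (log2 changes 3.86 and 3.09, limma adjusted p = 0.00307 and 0.00494). Prl2c3 and Prl2c2 encode proliferins, secreted relatives of prolactin. Prl2c3 was at 0.607, 1.25 and 28.7 FPKM and Prl2c2 at 0.0478, 0.613 and 15.5 FPKM. Neither passed the test (limma adjusted p = 0.0682 and 0.0845), and the ES libraries lay apart from each other for both. Their transcripts are 99.5% identical, with 4 edits over 842 bases, so the split of reads between them is uncertain. Of the 10 genes furthest above ES cells, 8 rose by limma, and 7 entered only through the library without LIF.

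Genes with a gene on the opposite strand were called higher more often than genes without one. Any overlap was present in 5465 of 12170 members (44.9%), in 231 of the 342 that rose (67.5%) and in 11 of the 33 that fell (33.3%). These are 4.23% and 0.201% of the overlapping members. Of strand-clear members 111 rose (1.66%) and 22 fell (0.328%). Of members sharing exon sequence 170 rose (4.38%) and 5 fell (0.129%), and of members overlapping only a gene body 61 rose (3.84%) and 6 fell (0.378%). Restricted to members at 1 FPKM or more in an ES library, 44 of 6415 strand-clear genes rose (0.686%), against 47 of 3609 that share exon sequence (1.3%) and 15 of 1478 with a body overlap (1.01%). In this restricted set 62 of the 106 genes that rose had an overlap (58.5%), against 44.2% of all 11502, and these 62 are 1.22% of the overlapping members in it. The 90 members listed at 0 in both ES libraries all rose; the ES pair gives them no spread, and 69 of them overlap a gene on the opposite strand. The difference in share between these classes was not tested.

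Shares were also taken by the ES level of the most abundant opposite gene, which need not be the one that shares exon sequence. An opposite gene without a value counted as under 1 FPKM. By the 2-fold rule, 2.37% of strand-clear members, 5.93% of those sharing exon sequence and 4.85% of those with a body overlap were higher, and 1.25%, 2.38% and 1.56% of members at 1 FPKM or more in an ES library. Among members sharing exon sequence whose most abundant opposite gene was under 1 FPKM, 58 of 1975 (2.94%) were at least 2-fold higher without LIF. The share was 30 of 719 (4.17%) with an opposite gene of 1 to 10 FPKM, 80 of 825 (9.7%) at 10 to 50 FPKM and 62 of 358 (17.3%) at 50 FPKM or more. With members at 1 FPKM or more in an ES library only, the shares were 39 of 1890 (2.06%), 5 of 675 (0.741%), 20 of 733 (2.73%) and 22 of 311 (7.07%), against 80 of 6415 (1.25%) for strand-clear members. In the restricted set the lowest share was thus in the class of 1 to 10 FPKM. Of members with only a body overlap, 35 of 1312 (2.67%), 11 of 124 (8.87%), 29 of 117 (24.8%) and 2 of 35 (5.71%) were higher over the same 4 levels. In the restricted set these were 17 of 1249 (1.36%), 3 of 109 (2.75%), 3 of 88 (3.41%) and 0 of 32, so no steady order held there either. Of its 86 members that shared exon sequence and were 2-fold higher, 43 had an opposite gene more abundant than themselves in ES cells. In 2 the opposite gene was itself a protein-coding member and 2-fold from both ES libraries. Changes of non-coding opposite genes were not counted.

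**Figure D3:**
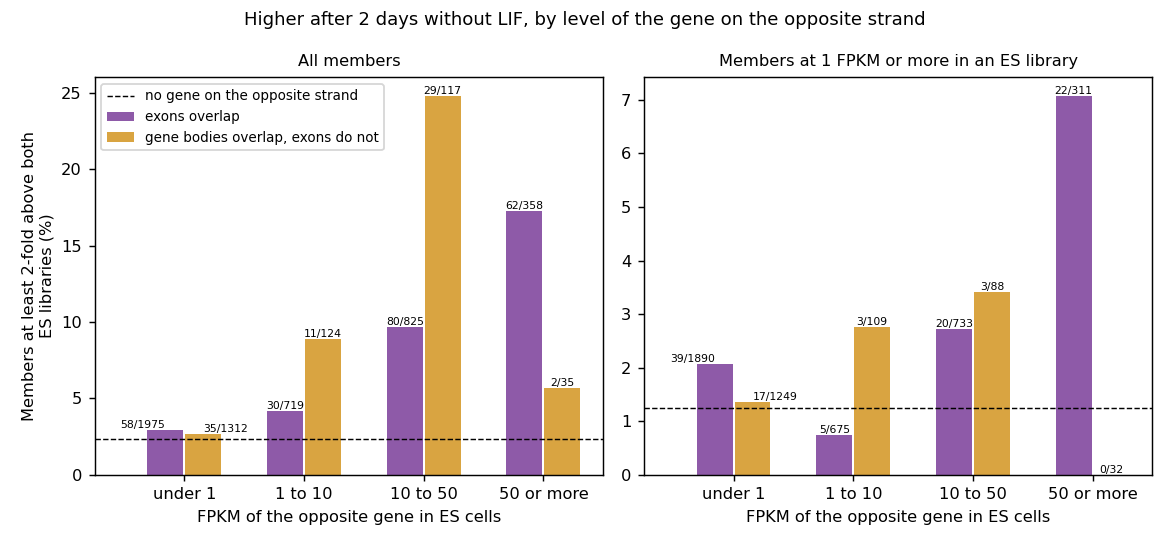
Percent of members at least 2-fold above both ES libraries (vertical axis), by ES level of the most abundant opposite gene (horizontal axis, FPKM). All members are on the left, and members at 1 FPKM or more in an ES library on the right, on a smaller scale. Purple bars are members sharing exon sequence, yellow bars those overlapping only a gene body, the numbers on the bars are members called over members present, and the dashed line is the share of strand-clear members (2.37% left, 1.25% right).

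Of the 8 overlapping genes furthest above ES cells, 7 shared exon sequence with an opposite gene. The most abundant gene opposite each of these 7 was at more than 10 FPKM in ES cells. Slc24a5, an ion exchanger of pigment cells, was at 50.6 FPKM without LIF and listed at 0 in ES 1 and in ES 2. Genes on the opposite strand share 39.5% of its exon sequence. The most abundant overlapping one in ES cells was Myef2 (80.0 FPKM, and 73.7 without LIF). Cd247, the T cell receptor zeta chain, was also listed at 0 in both and at 44.3 FPKM without LIF. Opposite-strand genes share 56.4% of its exon sequence, with Pou2f1 the most abundant overlapping one (33.2 and 32.7 FPKM). Of 2 further T cell receptor complex genes, Cd3d was listed at 0 in all 3 libraries and Cd3e, with an exon overlap, was at 0.947, 1.11 and 1.78 FPKM. Acat3, an acetyl-CoA acetyltransferase gene, was at 0.177, 0.138 and 23.6 FPKM, opposite the chaperonin gene Tcp1 (355 and 374.5 FPKM).

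Rpgrip1, a photoreceptor cilium gene, was at 0.677, 0.534 and 42.9 FPKM, opposite Supt16 (148 and 157 FPKM). Fam57a was at 2.56, 2.58 and 51.9 FPKM, opposite Glod4 (64.9 and 68.5 FPKM). Myo1h was at 0.0557, 0.0263 and 12.3 FPKM, opposite Kctd10 (16.3 and 19.1 FPKM). In each of these pairs the opposite gene stayed within 2-fold of its ES level. Srr, the serine racemase gene, was at 0.974, 0.930 and 23.5 FPKM, opposite Tsr1. Hpgds, a prostaglandin D synthase gene, was listed at 0 in ES cells and at 11.0 FPKM without LIF, and overlaps only the body of Gm17147 (0.222 and 2.48 FPKM). All 8 rose by limma, and 7 of them entered only through the library without LIF. How much of each value comes from the opposite gene was not tested.

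Among overlapping genes, the falls included growth factor and Notch pathway genes. Dll1, a Notch ligand, was at 6.08 and 6.54 FPKM in ES cells and 0.754 without LIF (log2 change -2.06, limma adjusted p = 0.0339), opposite A930024N18Rik at 0.0739 FPKM in ES cells. Igf2, a fetal growth factor expressed from the paternal allele, was at 9.23, 9.01 and 2.42 FPKM (-1.57, limma adjusted p = 0.0327), with Igf2os opposite at 0.0840 FPKM. Map2, a neuronal microtubule protein gene, was at 11.0, 11.6 and 3.21 FPKM (-1.55, limma adjusted p = 0.04). These 3 genes stood clearly below both ES libraries, which were close together. Fgfr2, a receptor for fibroblast growth factors, was at 11.1, 10.4 and 2.46 FPKM (-1.76, limma adjusted p = 0.0383), and its annotated body overlaps that of Bub3 (93.5 FPKM in ES cells) without shared exon sequence. Fndc3c1 was 2-fold lower at 9.20, 7.95 and 2.05 FPKM and did not pass (limma adjusted p = 0.0682). At the pseudocount of 5, Dll1, Igf2 and Map2 no longer passed, and Fgfr2 no longer passed with protein-coding sums set equal.

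The LIF pathway itself moved little apart from its feedback and early targets. Of 24 members of the list for the LIF receptor and STAT3, 2 fell (Socs3 and Fos) and 0 rose. The median log2 change was -0.16 against 0.03 over all members. Over all members 0.271% fell and 2.81% rose, shares to set beside this list and those that follow. The receptor Lifr was at 74.4, 75.4 and 72.8 FPKM, and its partner Il6st at 34.0, 33.8 and 27.3 FPKM. Stat3, which shares exon sequence with another gene, was at 59.1, 74.6 and 59.9 FPKM, with the library without LIF inside the range of the ES pair. The kinase gene Jak2 was at 1.15, 1.14 and 2.12 FPKM, under the 2-fold threshold. The STAT3 target Pim1, a kinase with an exon overlap, was at 23.4, 22.7 and 12.5 FPKM (log2 change -0.83), and Bcl3 at 14.2, 15.8 and 8.47 FPKM. Klf4, a further target, was at 176, 165 and 121 FPKM (-0.49, limma adjusted p = 0.0947). Cebpd, with an exon overlap, was at 0.706, 0.828 and 3.14 FPKM, at least 2-fold higher with a limma adjusted p = 0.0519.

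Of 22 immediate early genes, 3 fell and 1 rose, against 0.271% and 2.81% of all members. The AP-1 subunits did not move together. Fos and Fosb fell as given above, and Atf3, a stress-response factor that overlaps only a gene body, fell from 4.50 and 4.27 FPKM to 1.40 (log2 change -1.17, limma adjusted p = 0.0486), a call lost under 4 alternatives. Jun was at 6.94, 6.79 and 6.12 FPKM and Junb at 16.4, 14.9 and 11.1 FPKM, both with exon overlaps. Egr1, the serum-response zinc finger gene, was at 9.68, 9.77 and 11.2 FPKM. Fosl2 was at 4.39, 4.01 and 6.84 FPKM and Fosl1 at 1.85, 1.43 and 4.52 FPKM, above both ES libraries without passing either rule. Ier3, a survival gene of the early response, rose from 5.21 and 5.01 to 11.5 FPKM (1.04, limma adjusted p = 0.0478). Ccn1, a matricellular protein gene, was at 10.5, 8.72 and 27.1 FPKM, 2-fold higher with a limma adjusted p = 0.0873.

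Id2 and the other inhibitors of differentiation differed. Id1, a target of bone morphogenetic protein (BMP) signalling, was at 24.4, 23.6 and 22.1 FPKM. Id3 was at 10.9, 11.2 and 12.6 FPKM, and Id4 at 2.34, 2.68 and 2.70 FPKM. Only Id2 of these 4 was 2-fold lower. Of the 19 members of the BMP list, 1 rose, Grem1, a secreted BMP antagonist, from 6.88 and 7.27 to 46.4 FPKM (log2 change 2.55, limma adjusted p = 0.0154). The ligand Bmp4 was at 14.2, 15.1 and 20.9 FPKM and the inhibitory Smad7 at 20.4, 21.4 and 40.2 FPKM, neither past a threshold.

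Pluripotency genes other than Klf2 stayed within 2-fold. By limma 0 of 18 naive and 0 of 14 core pluripotency genes were called, 1 naive gene, Klf2, was 2-fold lower, and the medians were 0.05 and 0.10 on the log2 scale. Esrrb, a nuclear receptor of the naive network, was at 159, 156 and 114.5 FPKM. Zfp42, the REX1 gene, was at 182.5, 198.5 and 195 FPKM, inside the range of the ES pair. Tbx3 was at 15.8, 15.8 and 26.7 FPKM, and Dppa5a at 561, 577 and 805 FPKM, both above ES cells and under 2-fold.

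Of 17 genes of the formative and primed epiblast, 1 rose. Otx2, a homeobox gene of the exit from the naive state, went from 9.22 and 9.01 to 25.7 FPKM (log2 change 1.40, limma adjusted p = 0.0211). It shares exon sequence with Otx2os1, which was listed at 0 in these libraries. Fgf5, a marker of the primed epiblast, was at 0.413, 0.846 and 2.19 FPKM and entered only through the library without LIF. The de novo methyltransferase Dnmt3b was at 93.9, 99.7 and 91.7 FPKM and Pou3f1 at 4.98, 4.59 and 8.23 FPKM. Cd24a was lower at 43.1, 41.7 and 21.0 FPKM (-0.98), just short of 2-fold.

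Other signalling lists held 1 or no fall each. In the Notch list 1 of 20 fell (Dll1). Hes1, a Notch target, was at 29.98, 26.1 and 11.7 FPKM, 2-fold lower with a limma adjusted p = 0.0829, while the receptor Notch1 was at 6.98, 8.36 and 5.05 FPKM and the ligand Jag1 at 10.1, 10.9 and 10.3 FPKM. In the fibroblast growth factor and ERK list, 1 of 18 fell (Fgfr2) and the median was 0.49. Fgfr1 was at 18.4, 17.6 and 27.7 FPKM, the ligand Fgf4 at 24.8, 26.2 and 37.1 FPKM, and Dusp6, a phosphatase that ERK induces, at 19.0, 19.4 and 35.2 FPKM. These stood above both ES libraries and under 2-fold. In the WNT list 1 of 16 fell: Sp5, a WNT target, from 2.88 and 2.93 to 0.946 FPKM (-1.01, limma adjusted p = 0.0297). It lost the call at other pseudocounts and with protein-coding sums set equal. Of 13 NODAL pathway members 0 were called by either rule. Tdgf1, the NODAL co-receptor, was at 394, 413 and 377 FPKM.

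Of the lineage lists, 4 of 17 primitive streak genes, 8 of 18 primitive endoderm genes, 8 of 14 trophoblast genes and 10 of 16 neuroectoderm genes were members. Eomes, also in the trophoblast list, rose from 1.31 and 1.32 to 3.72 FPKM (log2 change 1.03, limma adjusted p = 0.0285), with exon sequence shared with Gm33460, a call lost at pseudocounts of 0.1 and 5. T, the brachyury gene, was at 1.00, 1.14 and 0.558 FPKM. Of 8 primitive endoderm and 10 neuroectoderm members, Map2 alone was called. Tfap2c, a trophoblast factor, was 2-fold lower at 3.73, 2.88 and 0.836 FPKM (limma adjusted p = 0.109).

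Imprinted and insulin-like growth factor genes mostly stayed under 2-fold. Of 22 imprinted genes 1 fell, Igf2, and 1 rose, Rtl1, a retrotransposon-derived gene opposite Mir433, from 0.0338 and 0.0171 to 4.28 FPKM. Rtl1 entered only through the library without LIF and lost the call at a pseudocount of 5. Dlk1, which lies in the same imprinted domain, was 2-fold lower at 6.63, 5.91 and 2.31 FPKM (limma adjusted p = 0.0748). Phlda2 was at 26.9, 26.9 and 14.9 FPKM and Cdkn1c at 36.7, 37.6 and 19.4 FPKM, both short of 2-fold. In the insulin-like growth factor list, Igfbp5 rose, Igf2 fell and the other 11 of 13 were called by neither rule. Igfbp2 was at 48.0, 45.5 and 54.5 FPKM and the receptor Igf1r at 15.8, 17.7 and 17.9 FPKM.

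The list of fibroblast feeder and matrix genes holds matrix, contractile and feeder marker genes. It had the most members and the highest number of rises of the 22 lists. By share, the metalloproteinase list (6 of 12) and the macrophage list (3 of 5) were higher. Of 26 members 9 rose (2.81% over all members), 13 were 2-fold higher (3.83% over all) and 0 were lower. The median log2 change was 1.05. Of the 24 at 1 FPKM or more in an ES library, 8 rose and 11 were 2-fold higher. Of all such members these were 0.922% and 1.64%. Postn, a matricellular protein gene, was at 2.39, 2.79 and 22.7 FPKM (log2 change 2.72, limma adjusted p = 0.0396, call lost at a pseudocount of 0.1). S100a4, a calcium-binding protein gene also named fibroblast-specific protein, was at 14.1, 12.6 and 73.2 FPKM (2.37, limma adjusted p = 0.0397). Dcn, the decorin gene, was at 0.695, 0.664 and 6.68 FPKM, and Col12a1, a fibril-associated collagen, at 5.93, 6.20 and 23.9 FPKM. All 4 stood above both ES libraries, which lay close together.

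Thbs1, which binds matrix and latent TGF-beta, was at 68.3, 72.5 and 248 FPKM and shares exon sequence with another gene. Acta2, smooth muscle actin, was at 82.8, 88.7 and 234 FPKM (log2 change 1.44, limma adjusted p = 0.0427), and Tagln, a smooth muscle protein gene with an exon overlap, at 52.4, 56.6 and 152 FPKM. Lox, which cross-links collagen, was at 12.8, 12.9 and 40.7 FPKM. Col5a2, a further collagen gene, rose from 7.72 and 7.64 to 28.4 FPKM (1.76, limma adjusted p = 0.0202). Twist2, Prrx1, Col6a1 and Myl9 were 2-fold higher without passing the test. The remaining members of the list were called by neither rule. Col1a1 was at 6.71, 7.29 and 12.1 FPKM, Col1a2 at 6.04, 5.38 and 7.14 FPKM, Col3a1 at 1.27, 0.980 and 2.14 FPKM, and Fn1 at 240, 240 and 265.5 FPKM. Twist1 was slightly lower at 1.06, 1.12 and 0.941 FPKM.

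The feeder cells in these cultures are themselves fibroblasts, so a panel of 12 fibroblast markers was summed in each library. The sum was 45.2 FPKM in ES 1, 43.8 in ES 2 and 162 without LIF, 3.63 times the ES mean. All 12 were above both ES libraries without LIF, 5 of them by 2-fold, Fap was at 0 in both ES libraries and Lum was at 0 in ES 2. S100a4 made up the largest share of the sum without LIF, at 73.2 FPKM. Of these 12 markers 10 are also members of the list just described, among them all 5 that were 2-fold higher, so the panel and that list are not separate measures. Beside the metalloproteinase, proliferin and chemokine values the panel was higher too, and its part in them was not tested. In bulk RNA, more cells of a type and more RNA per cell cannot be told apart, and the same holds for fewer and less. Macrophage and lymphocyte markers summed to 1.40, 1.58 and 3.90 FPKM, with Cd3d at 0 in every library and most of the sum in Cd3e and Csf1r, which both share exon sequence with another gene. Primitive endoderm markers summed to 2.58, 1.74 and 2.19 FPKM, mesoderm markers to 2.87, 2.81 and 4.06, and neuroectoderm markers to 2.85, 2.52 and 1.04.

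Of 12 metalloproteinase and inhibitor genes 6 rose and 0 fell, against 2.81% and 0.271% of all members. But 5 of the 12 entered only through the library without LIF. Of all members at 1 FPKM or more in an ES library, 0.922% rose. Among the 7 at 1 FPKM or more in an ES library 2 rose, both inhibitors: Timp1 from 14.4 and 14.2 to 38.7 FPKM (log2 change 1.38, limma adjusted p = 0.0167, body overlap with Syn1) and Timp3 from 7.23 and 7.13 to 18.9 FPKM (1.29, limma adjusted p = 0.0311, exon overlap). Mmp2, the abundant gelatinase of fibroblasts, was at 6.52, 6.56 and 7.22 FPKM and the membrane-bound Mmp14 at 25.2, 27.2 and 30.6 FPKM. Mmp13, a collagenase gene, was at 0.579, 0.726 and 3.74 FPKM (limma adjusted p = 0.0551). In the prolactin list all 3 members were 2-fold higher and only Prl2c3 reached 1 FPKM in an ES library.

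Of 11 interferon-induced genes Ifitm1 fell and Irf7 rose, from 0.155 and 0.266 to 2.70 FPKM. It shares exon sequence with the opposite strand, where Phrf1 was the most abundant overlapping gene (34.4 FPKM in ES cells). Irf7 entered only through the library without LIF, and its call was lost under 4 alternatives (pseudocounts of 0.1 and 5, no filter and no trend). In the macrophage and lymphocyte list, 3 of 5 members rose (Cd247, Csf1r and Lyz2), against 2.81% of all members. All 3 entered only through the library without LIF. Csf1r, the receptor for colony stimulating factor 1, was at 1.61 FPKM without LIF and listed at 0 in ES cells, opposite Hmgxb3. Lyz2, the lysozyme gene of macrophages, was listed at 0 in ES cells and at 1.36 FPKM, with no gene opposite. Csf1r and Lyz2 lost the call at a pseudocount of 5. Of 14 housekeeping genes 0 were called by either rule. Eef1a1 was at 4296, 4451 and 4350 FPKM and Gapdh at 3571, 4245 and 3267 FPKM.

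**Figure D4:**
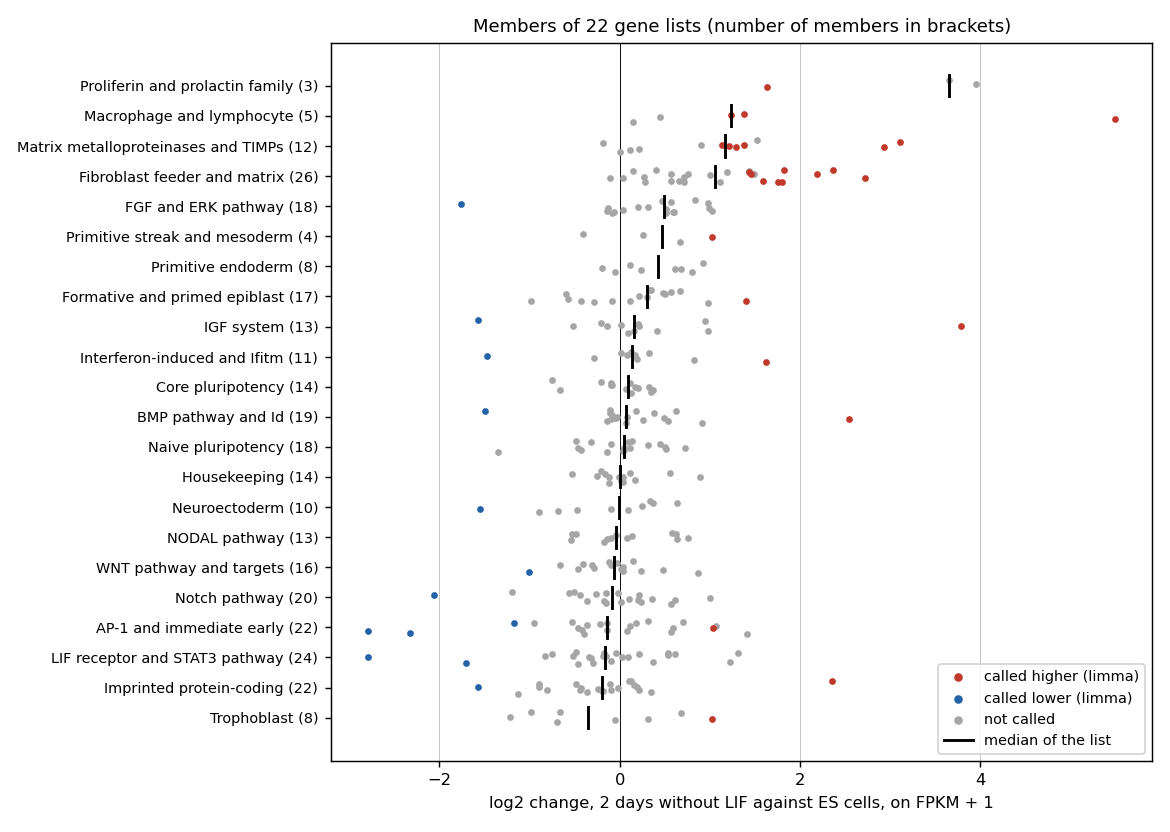
Log2 change of every member of 22 gene lists on FPKM + 1, library without LIF against ES cells, 1 point per gene, ordered by the median of the list (black bar). Red points rose and blue points fell by limma; the fibroblast list lies largely to the right of 0 with a median of 1.05, and the housekeeping list is centred on 0.

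Further strand-clear genes are named here after their values were seen. Ptgs2, the inducible cyclooxygenase, rose from 13.9 and 14.3 to 71.4 FPKM (log2 change 2.27, limma adjusted p = 0.0103). Csf1, a macrophage growth factor, rose from 13.9 and 14.6 to 47.8 FPKM (1.68, limma adjusted p = 0.0271). The ES libraries were close together for both. Among falls, Rps16, a small ribosomal subunit protein, went from 808 and 823 to 354 FPKM (-1.20, limma adjusted p = 0.0437), and Fgf17 from 19.7 and 20.7 to 8.23 FPKM (-1.20, limma adjusted p = 0.0402). Gap43, a growth cone protein gene, went from 13.3 and 13.5 to 5.46 FPKM (-1.15, limma adjusted p = 0.0366). Rps16 lost the call at a pseudocount of 0.1, Fgf17 and Gap43 at 5, and Rps16 and Fgf17 with a filter of 5 FPKM. Actg1, cytoplasmic actin, was 2-fold lower at 1729, 1802 and 732 FPKM and did not pass (limma adjusted p = 0.068).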

How the data were processed

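RNA from 4 libraries (2 of ES cells, 1 after 2 days and 1 after 5 days without LIF) was measured as FPKM, deposited by the authors with 1 value for each gene in each library. Per the submitters' processing notes, Trimmomatic 0.36, STAR, Cufflinks and the build mm10 were used. Their roles, the annotation and any strand setting are not stated in these sources. A few abundant transcripts can lower all other FPKM of a library.

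The log2(FPKM + 1) values were compared in limma 3.58.1 under R 4.3.3 (empirical Bayes with a trend on mean level, all 4 libraries in 1 model, Benjamini-Hochberg adjustment over 15676 genes at 1 FPKM or more). GENCODE release 21 gave gene types and opposite-strand overlaps: 47219 of 47633 identifiers matched without version, 82.8% with the same version. Depth was estimated from the value of a single fragment in genes of at least 3000 nt of exons. Promoters came from RefSeq and matched 9541 members. Named genes were the 10 highest and 10 lowest strand-clear genes, the 8 highest and 5 lowest overlapping genes (called by either rule, 5 FPKM or more on the higher side, predicted names left out), up to 4 called members per list or else the 2 most abundant in ES cells, the 4 markers and Pou5f1, Sox2 and Nanog; others were added after values were seen. The members and lists were chosen with earlier results of these data known. Steps were tested on simulated data. Figures were drawn with matplotlib 3.10.9, and tables were handled with pandas 2.3.3 in Python 3.11.15. A few further results are not reported here.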

Additional observations from a re-analysis of the deposited data

Results flagged for a closer look

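Of the genes named above, Ifitm1, Tfap2c, Col12a1, Acta2 and Csf1 went the opposite way in the library labelled embryoid body, after 5 days without LIF. Each lay at least 2-fold from both ES libraries there, and these genes are not a full list. Both comparisons use the same ES libraries, each group without LIF is 1 library, and the difference was not tested. Ifitm1 was at 42.15 FPKM after 2 days, 294 after 5 days and 118 ± 3.64 (SD, n = 2) in ES cells. Tfap2c was at 0.8358 FPKM after 2 days, 11.1 after 5 days and 3.30 ± 0.596 (SD, n = 2) in ES cells. Col12a1 was at 23.9 FPKM after 2 days, 1.496 after 5 days and 6.06 ± 0.193 (SD, n = 2) in ES cells. Acta2 was at 233.6 FPKM after 2 days, 1.057 after 5 days and 85.74 ± 4.204 (SD, n = 2) in ES cells. Csf1 was at 47.84 FPKM after 2 days, 5.39 after 5 days and 14.24 ± 0.5085 (SD, n = 2) in ES cells.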

How the results depend on the processing

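Of 89 named genes, 88 kept their direction in each of 12 settings in which they could be fitted; Eef1a1, at -0.01, was at 0.01 with protein-coding sums set equal and 0.02 without ES replicate 2. The count of genes that rose, 342, became 115 with a pseudocount of 5, 145 with a filter of 5 FPKM, 153 with only strand-clear genes of at least 1000 nt of exons fitted (111 of all strand-clear members rose in the fit over all genes) and 106 with members at 1 FPKM or more in an ES library, the last an alternative chosen after seeing the data. The count that fell, 33, became 11 with a pseudocount of 5, 20 with the filter of 5 FPKM and 71 with protein-coding genes fitted alone. By the 2-fold rule, 466 higher became 225 with the filter of 5 FPKM, 764 on FPKM + 0.1, 193 at 3-fold and 189 at 1 FPKM or more in an ES library, and 523 to 556 with 1 ES library left out. The 61 lower became 164 on FPKM + 0.1, 10 at 3-fold, and 93 without ES replicate 1 and 115 without ES replicate 2. A fit with 1 ES library has no residual degree of freedom, so it is a value with no test. With a pseudocount of 0.1, 17 of the 89 named genes lost the call; with 5, 22 lost and 5 gained it. Fitted among protein-coding genes alone 18 gained it, and 16 of 59 did when only strand-clear genes of at least 1000 nt of exons were fitted, a setting that changes overlap and length together. Median-of-ratios scaling and equal protein-coding sums moved the median change from 0.032 to 0.021 and 0.044. The cause of these moves was not tested, except that a filter and a narrower gene set test fewer genes. No paired analysis was possible because the library without LIF has no replicate. The main limits are 1 library per condition outside ES cells, unknown strand, and a depth of 18.3 M fragments without LIF.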

Other observations

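The gene families in these paragraphs were put together after the values were seen. Of 10 chemokine ligand genes 4 rose (2.81% over all members), 5 were 2-fold higher (3.83% over all) and 0 were 2-fold lower, with 3 below 0 on the log2 scale (Cx3cl1, Ccl25 and Cxcl16). Ccl20 and Cxcl5, which are among the 4, entered only through the library without LIF. Beside Ccl7, Cxcl5, a neutrophil attractant, was at 0.283 and 0.334 FPKM in ES cells and 2.99 without LIF (log2 change 1.61, limma adjusted p = 0.0191), and Cxcl1 went from 3.09 and 2.98 to 7.60 FPKM (1.09, limma adjusted p = 0.049), a call lost under 4 alternatives. Ccl2, which overlaps a gene body, was at 5.16, 6.53 and 31.3 FPKM and did not pass (limma adjusted p = 0.0703). Of 14 genes of blood clotting and fibrinolysis, 4 rose, 5 were 2-fold higher and 0 were 2-fold lower, against the same shares over all members. Thbd, the thrombin receptor thrombomodulin, was at 2.50, 2.71 and 12.4 FPKM, Procr, the protein C receptor, at 3.45, 3.43 and 8.74 FPKM, and F3, tissue factor, at 11.7, 10.5 and 32.4 FPKM. Thbd lost its call at a pseudocount of 0.1 and Procr at 0.1 and 5. Tfpi and Pros1 stayed within 2-fold. The fibroblast marker panel was higher in the same library, and its part was not tested.

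Of 82 cytoplasmic ribosomal protein genes 61 were below 0 on the log2 scale with a median of -0.17, and only Rps16 was called. Of 13 histone H2B genes of cluster 1, all strand-clear, Hist1h2bl fell from 184 and 184.5 to 87.5 FPKM (log2 change -1.07, limma adjusted p = 0.0158), and Hist1h2bb and Hist1h2be were 2-fold lower. Over all 64 replication-dependent histone genes the median was 0.09, and Hist1h2ai, Hist1h2ad and Hist1h2ah, with exon overlaps, were 2-fold higher. Sequence identity among these histone genes was not measured, so the split of reads between similar copies is uncertain. Of 3 thrombospondin genes, Thbs1 and Thbs2 rose (Thbs2 from 1.55 and 1.54 to 13.5 FPKM) and Thbs3 was at 4.11, 4.93 and 4.68 FPKM. Of 6 S100 genes S100a4 rose, S100a11 was 2-fold higher at 51.0, 44.9 and 140.5 FPKM without passing the test, S100a6 was at 249, 252 and 296 FPKM, and S100a16 was 2-fold lower at 2.42, 2.15 and 0.541 FPKM. The mitochondrial gene mt-Nd6, which shares exon sequence with another gene on the other strand, was at 824, 708 and 2220 FPKM, while no other of the 12 mitochondrial members was 2-fold higher.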
